A study of Mus musculus with 8 samples.

Results

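The genes described here carry a mammalian cell from growth in G1 into S phase. They are the 3 D-type cyclins *Ccnd1*, *Ccnd2* and *Ccnd3*, their kinases *Cdk4* and *Cdk6*, the cyclin E gene *Ccne1* with its kinase *Cdk2*, the inhibitor *Cdkn1b*, and the pair *Rb1* and *E2f1*. They were chosen by symbol, and all 10 were found among the 24059 gene symbols counted. Mast cells grown from the bone marrow of C57BL/6 mice (BMMCs) were electroporated with ribonucleoproteins (RNPs) of Cas9 and guide RNA. The guides cut *Zc3h12a*, the gene of the RNA-degrading protein Regnase-1, or were scrambled guides without a target. The scrambled RNP samples carry the genotype label Zc3h12a WT and the *Zc3h12a* RNP samples the label Zc3h12a KO, with 4 samples in each group. All 8 samples came from cells held in IL-3, the cytokine on which these mast cells live, for at least 4 wk before transfection, and RNA was taken 1 wk after it, without stimulation. The mice were 6 to 8 wk old. An electroporated culture is a mixture of edited and unedited cells and not a clone, so a level is an average over that mixture. The comparison asks how the genes that govern entry into S phase stood in mast cells after *Zc3h12a* was targeted.

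In a growth factor–fed cell, D-type cyclins bind Cdk4 or Cdk6, and these kinases begin to phosphorylate the retinoblastoma protein Rb, which holds E2F factors in check. Released E2F factors switch on genes of DNA replication as well as cyclin E, and cyclin E with Cdk2 completes the phosphorylation of Rb. The protein p27, encoded by *Cdkn1b*, binds cyclin–kinase complexes and restrains cyclin E with Cdk2, and it is itself controlled largely by degradation, so that its mRNA is only a part of its regulation. In mast cells the drive into this pathway comes from Kit and from the IL-3 receptor.

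The promoters were searched for the letters that E2F factors read. Windows from 250 bases before to 50 bases after the transcript start were searched on both strands for the E2F site cores TTTCCCGC, TTTCGCGC, TTTGCCGC and TTTGGCGC. Of 17419 promoters, 565 (3.24%) held such a core, and of the 10 G1 genes 4 did, namely *Ccnd3*, *Cdk2*, *Rb1* and *E2f1*. The other 6, *Ccne1* among them, held none in this window. The 4 matches are shown because E2F factors are the end point of this pathway. Each line gives 30 bases of the GRCm39 genome, 5′ to 3′ on the strand of the gene, with the core in capitals, and a core that lies on the opposite strand appears as its reverse complement.
Ccnd3, chr17:47904127-47904156, plus strand: aaggaataactTTTGGCGCctagttctttc
Cdk2, chr10:128541042-128541071, minus strand: aaccaggaactGCGGGAAAgttgtgcagct
Rb1, chr14:73563703-73563732, minus strand: tcaaaagctacTTTCCCGCtaagatctgtc
E2f1, chr2:154411790-154411819, minus strand: gtggctctttcGCGGCAAAaaggatttggc

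Counted in bases from the start of the canonical transcript, the cores of *Ccnd3*, *Cdk2* and *Rb1* lie at -226, -97 and -214. *E2f1* held the core shown, at 4, and another, TTTGGCGC, at 17. A GC box, GGGCGG, was present in 8 of the 10 promoters and in 49.5% of all those searched. A match of letters is a description and shows no binding.

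The libraries held 19610240 to 33986762 counted reads in the scrambled RNP samples and 23712029 to 28564062 in the *Zc3h12a* RNP samples. Mast cell markers summed to 51071 to 60928 CPM (counts scaled to the TMM-normalized library size) after scrambled RNP and 49231 to 52184 after *Zc3h12a* RNP, with all 10 markers above 1 CPM. Over all samples, basophil markers summed to 453 to 554 CPM, erythroid markers to 144 to 236 CPM, mostly *Gata1*, which mast cells also use, and macrophage markers to 8.15 to 10.5 CPM. T cell markers summed to at most 5.9 CPM and B cell markers to at most 2.71 CPM. The 3 of 7 neutrophil markers that were counted summed to at most 0.333 CPM. Scrambled RNP replicates 2 and 4 stood at the ends of the first principal component, with scores of -121 and 74.7 on an axis that held 65.7% of the variance. *Zc3h12a*, which the guides cut, had a level of 34.8 ± 6.65 CPM after scrambled RNP and 33.2 ± 5.91 after *Zc3h12a* RNP (mean ± SD, n = 4 each), and the log2 fold change from scrambled to *Zc3h12a* RNP was -0.064 (edgeR, adjusted p = 0.96). Cuts in the gene need not lower its mRNA, so this level is no check of the labels.

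Of the G1 genes, *Cdk4* and *Ccnd2* had the highest levels and *Ccnd1* was close to absent. To compare genes, CPM were divided by the length of each gene's exons in kilobases. On this scale the levels after scrambled RNP were 52.2 ± 11.9 for *Cdk4*, 43.5 ± 1.11 for *Ccnd2*, 27.7 ± 5.16 for *Cdk6* and 23.3 ± 6.06 for *Cdkn1b* (mean ± SD, n = 4, here and below). *Ccnd3* followed at 18.1 ± 4.17, *Rb1* at 16.6 ± 0.893, *E2f1* at 11.9 ± 3.28 and *Cdk2* at 10.3 ± 1.43. *Ccne1* was at 2.3 ± 0.933 and *Ccnd1* at 0.121 ± 0.123. Among 13199 protein-coding genes tested, ranking by the mean over all 8 samples put *Cdk4* at percentile 95.9, *Ccnd2* at 94.7, *Ccne1* at 47.5 and *Ccnd1* at 5.75.

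Several neighbors in this order were not separated in every sample. *Ccnd3* exceeded *Rb1* in 3 of 8 samples, *E2f1* exceeded *Cdk2* in 6, *Cdkn1b* exceeded *Ccnd3* in 6, and *Cdk4* exceeded *Ccnd2* in 7. *Ccnd2* was above *Cdk6*, *Cdk2* above *Ccne1* and *Ccne1* above *Ccnd1* in all 8. The order also depends on the length used. Divided by the longest transcript instead, *Ccnd3* (43.4) and *Rb1* (40.0) came before *Cdk6* (34.2) and *Cdkn1b* (23.3), while *Cdk4* and *Ccnd2* stayed the highest and *Ccne1* and *Ccnd1* the lowest.

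**Figure D1:**
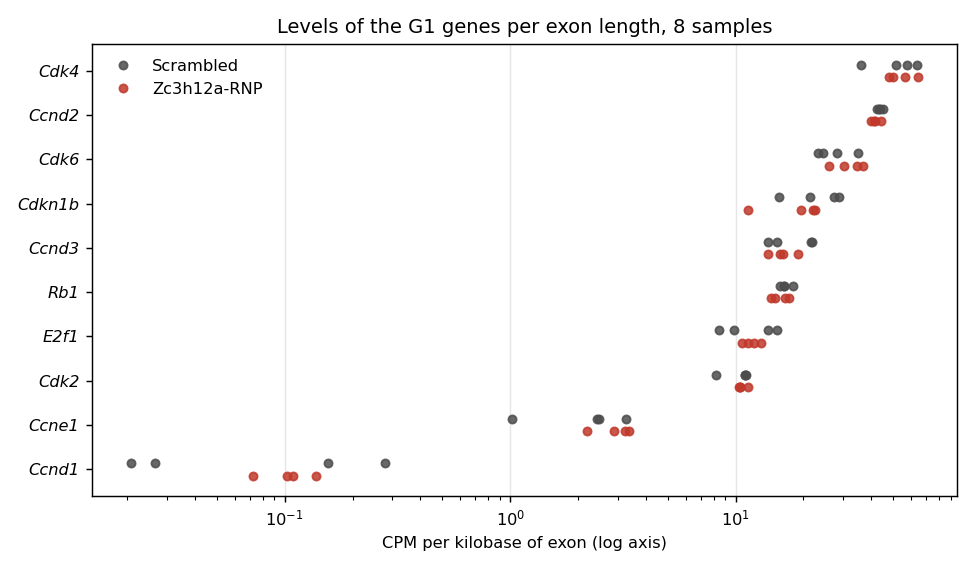
Level of each G1 gene in each of the 8 samples, as CPM per kilobase of exon on a log axis, with 1 point per sample and the group given by color. *Cdk4* and *Ccnd2* lie highest, *Ccne1* between 1.02 and 3.37, and *Ccnd1* at 0.279 or lower in every sample.

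No G1 gene changed after *Zc3h12a* RNP at an adjusted p at or under 0.05 and a log2 fold change beyond 0.5 in the blocked edgeR fit (quasi-likelihood F test, replicate number as block), in which 0 of 14934 genes (0%) passed in either direction. The lowest adjusted p of any gene was 0.0558. At the looser limit of an unadjusted p of 0.05, 922 of all genes (6.17%) passed, and among the 10 G1 genes 1 did, *Cdkn1b*, which was lower. DESeq2 called 8 genes higher and 50 lower and limma-trend 0 and 1, none of them a G1 gene. The replicate number is taken to mark a mouse, whose cells received both RNPs. A log2 fold change above 0 was found for 6 of the 10 genes, against 57.8% of all genes tested, and the median was 0.044 against 0.038 for all genes. Of the 10, 0 were higher in all 4 pairs, where 4.98% of all genes were. In bulk RNA, fewer cells that hold a transcript and less of it per cell cannot be told apart.

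**Figure D2:**
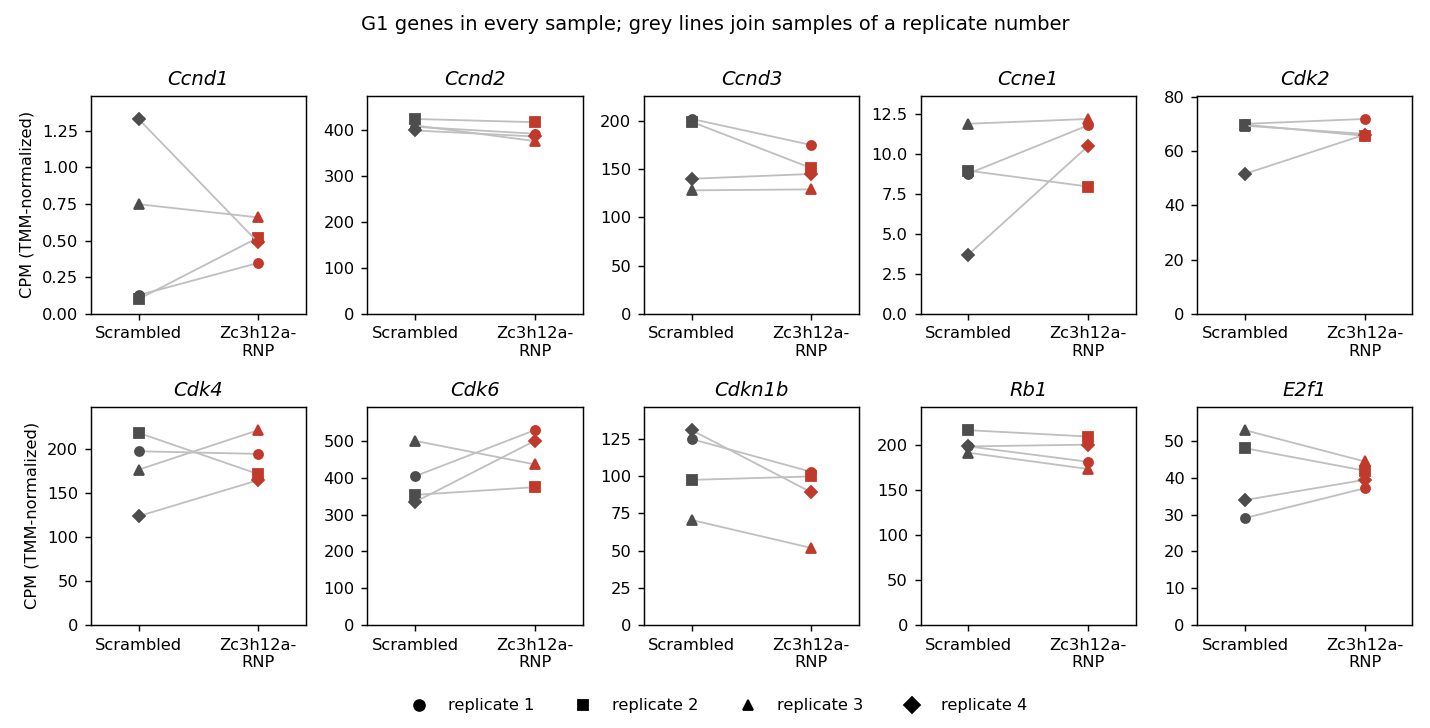
TMM-normalized CPM of each G1 gene in every sample, with axes from 0, the scrambled RNP samples in grey, the *Zc3h12a* RNP samples in red, and a line joining the samples of a replicate number. The lines of *Ccnd2* all slope slightly down, those of *Cdkn1b* slope down in 3 of 4 pairs, and the lines of the other genes differ in direction between pairs.

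Among the D-type cyclins, *Ccnd2* (ENSMUSG00000000184, chr6:127102125-127129156 in GRCm39, minus strand) was the main D-type cyclin transcript in these mast cells and the steadiest of the 10 genes. Its CPM were 406, 423, 409 and 398 in scrambled RNP replicates 1 to 4 and 391, 416, 375 and 385 in the *Zc3h12a* RNP replicates. The samples of the 2 groups overlapped, although *Ccnd2* was lower in each of the 4 pairs, with log2 differences of -0.055, -0.025, -0.13 and -0.048. Of all genes tested, 8.54% were lower in all 4 pairs. Over the 4 pairs its log2 fold change was -0.063 with a standard error (SE) of 0.074 and an adjusted p of 0.96, and the 95% interval ran from -0.24 to 0.11, that is from 0.849-fold to 1.08-fold. When libraries were scaled by their size alone, which placed the median of all genes at 0.11, the fold change of *Ccnd2* was 0.0046.

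*Ccnd3* (ENSMUSG00000034165, chr17:47815767-47910624), the D-type cyclin prominent in lymphoid cells, varied among the control cultures themselves. It stood at 202, 199, 128 and 140 CPM in scrambled RNP replicates 1 to 4 and at 175, 151, 129 and 145 CPM after *Zc3h12a* RNP. Replicates 1 and 2 were the high ones in the control group, and only in these pairs was *Ccnd3* lower after *Zc3h12a* RNP. Its fold change was -0.14 (log2, SE 0.097, adjusted p = 0.96, 95% interval -0.37 to 0.088), and without replicate 2 it was 0.0091.

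*Ccnd1* (ENSMUSG00000070348, chr7:144483668-144493662), the D-type cyclin that growth factors induce in many adherent cells, was measured by very few reads. The scrambled RNP samples held 4, 3, 19 and 28 reads on it and the *Zc3h12a* RNP samples 10, 12, 16 and 15. Its reads were fewest in scrambled RNP replicates 1 and 2 and most numerous in scrambled RNP replicate 4, so the whole *Zc3h12a* RNP group lay inside the range of the controls. The estimate was 0.40 with an SE of 0.81 (adjusted p = 0.962). The 95% interval, -1.48 to 2.28, left the direction and size of any change undetermined. Without the replicate block, or without replicate 2, it was -0.17. The exons of *Ccnd1* share 2315 bases with *LTO1* on the opposite strand, which was at 20.5 ± 4.57 CPM after scrambled RNP. Since the strand setting of the counting is not given in the sources used here, reads of these genes cannot be told apart.

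Summed per exon length, the D-type cyclin pool was mostly *Ccnd2*. *Ccnd2* made up 70.7% ± 4.43 of it after scrambled RNP and 71.9% ± 2.32 after *Zc3h12a* RNP, *Ccnd3* 29.1% ± 4.61 and 27.9% ± 2.37, and *Ccnd1* 0.206% ± 0.215 and 0.183% ± 0.0555. Divided by the longest transcript, the share of *Ccnd2* was 60.1% and 61.4%. The log2 ratio of *Ccnd3* to *Ccnd2* differed between the groups by -0.076, with pair differences of -0.15, -0.38, 0.13 and 0.098 (exact two-sided sign-flip permutation test, p = 0.625). That of *Ccnd1* to *Ccnd2* differed by 0.61 (p = 0.5 in the same exact test). With 4 pairs this exact test cannot go below p = 0.125, and over the 5 ratios tested here all adjusted p were 0.625.

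The kinase partners of the D-type cyclins were both abundant. *Cdk4* (ENSMUSG00000006728, chr10:126895180-126903789) was at 198, 219, 177 and 124 CPM in the scrambled RNP replicates and at 195, 172, 222 and 165 CPM in the *Zc3h12a* RNP replicates. It was higher in pairs 3 and 4 and lower in pairs 1 and 2, giving a log2 fold change of 0.090 (SE 0.13, adjusted p = 0.96, 95% interval -0.22 to 0.40). Without replicate 3 the value was -0.043 and without replicate 4 it was -0.017. The exons of *Cdk4* share 646 bases with *Tspan31* on the opposite strand. Other counted genes on the opposite strand share 750 bases with *Ccnd2*, 369 with *Ccnd3*, and 408 and 488 with *Rb1*. *Ccne1* and *Cdk2* share 70 and 34 bases in this way. The limit given for *Ccnd1* applies to the shared bases of all these genes.

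*Cdk6* (ENSMUSG00000040274, chr5:3391485-3581008), the D-type cyclin kinase typical of blood cells, stood at 405, 354, 501 and 335 CPM after scrambled RNP and at 530, 375, 437 and 501 CPM after *Zc3h12a* RNP. It was higher in 3 of 4 pairs, most in pair 4 (0.58), and lower in pair 3 (-0.20). The fitted log2 fold change was 0.21 (SE 0.13, adjusted p = 0.96), and its 95% interval ran from -0.091 to 0.52. Without replicate 4 it was 0.093 and without replicate 2 it was 0.32. Per exon length, *Cdk4* made up 65% ± 5.85 of the sum of both kinases after scrambled RNP and 63.1% ± 4.57 after *Zc3h12a* RNP, and the log2 ratio of *Cdk4* to *Cdk6* differed by -0.12 (exact sign-flip permutation test, p = 0.625).

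*Ccne1* (ENSMUSG00000002068, chr7:37797404-37808264), which encodes the cyclin that acts at the step into S phase and is itself a target of E2F factors, had a fold change with a wide error. Its CPM were 8.78, 8.96, 11.9 and 3.71 in the scrambled RNP replicates and 11.8, 7.97, 12.2 and 10.5 in the *Zc3h12a* RNP replicates. Scrambled RNP replicate 4 was the lowest of all 8 samples, and the pair differences were 0.42, -0.17, 0.043 and 1.48. Fitted over all pairs, *Ccne1* differed by 0.42 on the log2 scale (SE 0.26, adjusted p = 0.96, 95% interval -0.18 to 1.03). It was 0.10 without replicate 4 and 0.67 without replicate 2, where the unadjusted p was 0.00101 and the adjusted p 0.0843 in edgeR's test.

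*Cdk2* (ENSMUSG00000025358, chr10:128533796-128540963), the kinase of cyclin E, was even across samples apart from the same library. It was at 70.0, 69.7, 69.3 and 51.6 CPM after scrambled RNP and at 71.8, 65.6, 66.3 and 66.0 CPM after *Zc3h12a* RNP. The low value is again scrambled RNP replicate 4, and pair 4 was the only pair with a difference above 0.1 in size (0.35). The fitted value was 0.059 on the log2 scale (SE 0.096, adjusted p = 0.96, 95% interval -0.17 to 0.28), and -0.037 without replicate 4. Scrambled RNP replicate 4 also had the lowest CPM of *Cdk4* and *Cdk6* of the 8 samples and the smallest library. *Mki67*, a marker of cycling cells, was at 327 CPM in it and at 429 to 764 CPM in the others, and the part of this library's state in the results was not tested.

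*Cdkn1b* (ENSMUSG00000003031, chr6:134897364-134902476), the gene of the inhibitor p27, was the G1 gene whose interval did not include 0. It was at 125, 97.6, 70.6 and 131 CPM in the scrambled RNP replicates and at 103, 99.9, 51.8 and 89.2 CPM in the *Zc3h12a* RNP replicates. The cultures of replicate 3 had the least *Cdkn1b* in both groups, and the log2 differences within pairs were -0.28, 0.034, -0.45 and -0.55. Its fold change was -0.31 on the log2 scale, with an SE of 0.11 and a 95% interval from -0.56 to -0.058, that is from 0.678-fold to 0.961-fold. The unadjusted p was 0.0223, but over all genes tested the adjusted p was 0.686, and by the same unadjusted limit 605 genes (4.05%) were lower. Without the replicate block the estimate was -0.30 with an unadjusted p of 0.256, and leaving out each replicate in turn gave -0.36 to -0.23. In edgeR's test the unadjusted p was then 0.135 without replicate 1, 0.0324 without replicate 2, 0.0503 without replicate 3 and 0.0875 without replicate 4. With all replicates it was 0.00558 in DESeq2 and 0.0176 in limma-trend, with adjusted p of 0.263 and 0.711. Scrambled RNP replicate 4, which stood apart, held the highest *Cdkn1b* of the 8 samples, in the pair with the largest difference.

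Set against the inhibitor, the summed D-type cyclins were higher per unit of *Cdkn1b* in 3 of 4 pairs. The log2 ratio of the sum to *Cdkn1b* was 1.45 ± 0.39 after scrambled RNP and 1.67 ± 0.39 after *Zc3h12a* RNP, with pair differences of 0.18, -0.17, 0.35 and 0.52. The mean difference of 0.22 was not separated from 0 by the exact sign-flip permutation test (two-sided p = 0.25). It was 0.35 without replicate 2 and 0.12 without replicate 4. In each pair this ratio moved opposite to *Cdkn1b* itself, so it is not a result apart from that of *Cdkn1b*.

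*Rb1* (ENSMUSG00000022105, chr14:73421113-73563507), which encodes the brake on E2F factors, was among the steady genes. It was at 198, 216, 191 and 198 CPM after scrambled RNP and at 181, 209, 173 and 200 CPM after *Zc3h12a* RNP. The groups overlapped and 3 of 4 pairs were lower, and the fitted log2 fold change was -0.073 (SE 0.076, adjusted p = 0.96, 95% interval -0.25 to 0.10).

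*E2f1* (ENSMUSG00000027490, chr2:154401326-154411812), an activator of S phase genes and a target of its own family, did not move one way. Its CPM were 29.1, 48.1, 53.0 and 34.0 after scrambled RNP and 37.2, 42.0, 44.5 and 39.5 after *Zc3h12a* RNP. All *Zc3h12a* RNP samples lay inside the range of the controls, whose low samples, replicates 1 and 4, had higher partners and whose high samples, replicates 2 and 3, had lower ones. Fitted over the pairs, the difference was 0.028 (log2, SE 0.12, adjusted p = 0.977, 95% interval -0.25 to 0.31). The log2 ratio of *E2f1* to *Rb1* differed by 0.10 between the groups (exact sign-flip permutation test, p = 0.625).

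**Figure D3:**
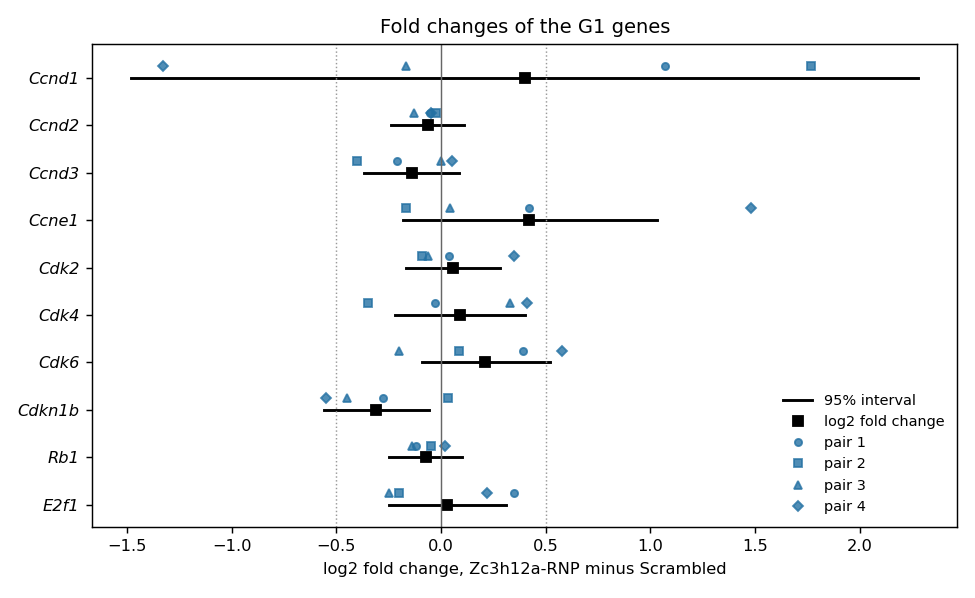
Log2 fold change of each G1 gene after *Zc3h12a* RNP (squares) with its 95% interval from edgeR (bars) and the difference in each of the 4 pairs (small symbols), with dotted lines at 0.5 in each direction. The interval of *Cdkn1b*, from -0.56 to -0.058, is the only one that leaves out 0, and that of *Ccnd1*, from -1.48 to 2.28, is the widest.

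The genes around the G1 switch were read from 6 lists of 57 genes, 55 of them tested, and 0 of these were called. All lists were chosen with earlier results of these data known. The list with the most low p-values was that of E2F target genes of S phase entry, with DNA licensing factors, nucleotide enzymes and later cyclins. All 16 had a log2 fold change above 0 (57.8% of all genes), between 0.18 and 0.44 with a median of 0.35. Of the 16, 6 had an unadjusted p at or under 0.05 in edgeR's test, as did 2.12% of all genes in this direction. Most of the 16 were lower in pair 2 and differed most in pair 4. They are therefore not 16 independent observations, and the shares of all genes are no test of these counts. *Tk1*, thymidine kinase, was at 16 ± 3.39 CPM after scrambled RNP and 21.1 ± 3.21 after *Zc3h12a* RNP and higher in 4 of 4 pairs (log2 fold change 0.41, unadjusted p 0.00897, adjusted p = 0.609). *Cdc6*, which loads the replicative helicase, was at 14.2 ± 3.28 and 18.5 ± 2.58 CPM and also higher in 4 of 4 pairs (0.39, unadjusted p 0.0125, adjusted p = 0.645). Among all genes tested, 4.98% were higher in all 4 pairs. For the helicase subunits *Mcm5* and *Mcm4* the log2 fold changes were 0.44 and 0.32, with 3 of 4 pairs higher in each.

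These target genes did not keep a like difference in every pair. The median over the 16 was 0.38, -0.068, 0.21 and 0.84 in pairs 1 to 4, and it was 0.17 without replicate 4 and 0.55 without replicate 2. *Mki67* had pair differences of 0.55, 0.096, -0.11 and 1.02 and a log2 fold change of 0.39 (adjusted p = 0.843), and the part of the share of cycling cells in these values was not tested. The E2F core was found in the promoters of 7 of the 16, *Mcm3*, *Mcm4*, *Mcm5*, *Mcm6*, *Cdc6*, *Cdt1* and *Pola1*. It was found in 3.24% of all promoters searched. *Tk1*, the target with the lowest p, held none, and the part of the core in the fold changes was not tested.

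The other E2F and DP factors, which bind the same sites as *E2f1*, had a median of 0.24, with 8 of 9 above 0 (57.8% of all genes) and 2 higher at an unadjusted p at or under 0.05 (2.12% of all genes). The median was 0.39 without replicate 2 and 0.11 without replicate 4. The 2 genes were *E2f6* and *Tfdp1*. *E2f6*, a repressor of the family, was at 11 ± 1.8 and 13.2 ± 1.87 CPM (0.26, adjusted p = 0.771). *Tfdp1*, a partner with which several E2F factors bind DNA, was at 82.1 ± 11.4 and 98.7 ± 19.5 CPM (0.25, adjusted p = 0.772). Both were higher in 4 of 4 pairs, as were 4.98% of all genes. The activator *E2f3* was at 0.23 and the late repressor *E2f7* at 0.37, each higher in 3 of 4 pairs. The relatives of *Rb1* and the MuvB complex that works with them had a median of 0.15, with 5 of 6 above 0 (57.8% of all genes). *Lin9*, a MuvB subunit, was at 17.4 ± 3.77 and 20.7 ± 5.6 CPM and higher in 4 of 4 pairs (0.23, unadjusted p 0.0324, adjusted p = 0.744). Of the pocket proteins, *Rbl1*, which is abundant in cycling cells, had a log2 fold change of 0.34 and *Rbl2*, abundant in resting cells, one of -0.10, neither with an unadjusted p at or under 0.05. *Lin37*, also of MuvB, was at 0.14.

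The other CDK inhibitors were led in level by *Cdkn1a*, the gene of p21, which stood at 163 ± 56.5 CPM per kilobase after scrambled RNP, where *Cdkn1b* was at 23.3. *Cdkn1a* ranged from 513 CPM in scrambled RNP replicate 1 to 1309 CPM in replicate 3, and its *Zc3h12a* RNP partners were at 525 and 1226 CPM, so the partners lay close together and the cultures far apart. On the log2 scale the RNPs differed by -0.10 (SE 0.079, adjusted p = 0.96). The INK4 genes *Cdkn2c*, *Cdkn2b* and *Cdkn2d*, whose proteins bind Cdk4 and Cdk6, were at 0.20, 0.21 and -0.053. Over the 5 inhibitors tested the median was -0.012, and 0 had an unadjusted p at or under 0.05 (6.17% of all genes). *Cdkn1c* did not pass the filter on low counts.

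The genes of CDK activation and cyclin turnover had a median of 0.023, with 6 of 9 above 0 (57.8% of all genes). Of the 9, 0 had an unadjusted p at or under 0.05 (6.17% of all genes). *Fbxw7*, the ubiquitin ligase subunit that marks cyclin E for degradation, was lower in 4 of 4 pairs, as were 8.54% of all genes. Its log2 fold change was -0.18 (edgeR, unadjusted p 0.0546, adjusted p = 0.821). *Cks1b*, which helps the SCF ligase recognize p27, had the largest value of the list, 0.45, with pair differences of 0.32, -0.27, 0.63 and 1.18 (adjusted p = 0.844). *Fzr1*, an activator of the APC/C ligase in G1, was at 0.14 and *Mnat1*, of the CDK-activating kinase, at -0.095.

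The IL-3 signal upstream of the D-type cyclins had a median of -0.10, with 3 of 10 above 0 (57.8% of all genes) and 2 lower at an unadjusted p at or under 0.05 (4.05% of all genes). The 2 were the kinase genes that STAT5 switches on. *Pim2* was at 106, 84.4, 117 and 181 CPM after scrambled RNP and at 95.4, 59.2, 107 and 135 CPM after *Zc3h12a* RNP, with a log2 fold change of -0.30 (unadjusted p 0.0134, adjusted p = 0.656). *Pim1* was at 843, 915, 663 and 915 CPM and at 715, 800, 500 and 848 CPM, with a log2 fold change of -0.24 (unadjusted p 0.0218, adjusted p = 0.686). Both were lower in 4 of 4 pairs, and *Stat5a* was as well, at -0.17 (adjusted p = 0.875). Among all genes tested, 8.54% were lower in all 4 pairs. The kinase gene *Jak2* was lower in 3 of 4 pairs, at -0.094. Without replicate 2 the median of the list was 0.024. The receptor genes *Csf2rb* and *Csf2rb2*, with log2 fold changes of 0.049 and 0.018, are near-identical copies, so the division of reads between them is uncertain.

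**Figure D4:**
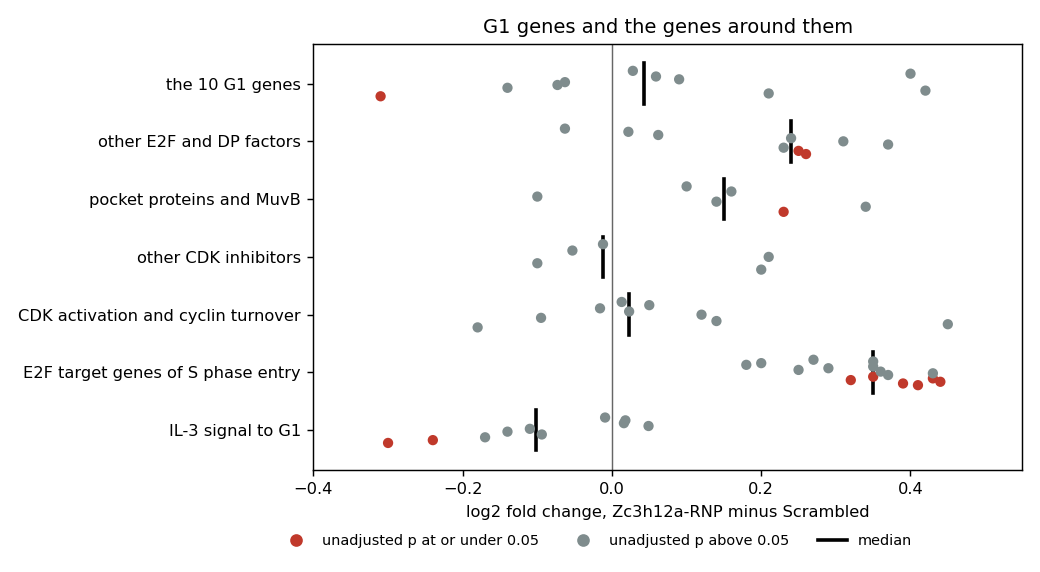
Log2 fold changes after *Zc3h12a* RNP of the 10 G1 genes and of the tested genes of the 6 lists, with 1 point per gene, red where the unadjusted p is at or under 0.05, and a bar at each median. All 16 E2F target genes lie right of 0, where 57.8% of all genes tested lie, around a median of 0.35. These 16 are not independent of one another. The G1 genes center on 0.044 and the IL-3 signal genes on -0.10.

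Of the 10 genes, 3 spanned more than 1 log2 unit over the 8 samples, and their profiles were compared with those of all genes tested by the root mean square difference of centered log2 CPM. *Ccne1* spanned 1.70, and the closest profiles were those of *Cdc20* (0.0933), an activator of the APC/C ligase in mitosis, *Uhrf1* (0.114), which maintains DNA methylation through replication, and *Eef1akmt4* (0.123). *Cdkn1b* spanned 1.33, and *Ltbp3* (0.119), *Trim58* (0.121) and *Dhrs11* (0.122) were nearest. *Ccnd1* spanned 3.01, with *Gucy2e* (0.11), *Nrxn3* (0.128) and *Gm19052* (0.138) nearest, and these had mean levels of 0.475, 2 and 0.78 CPM. Of the 4 T cell markers counted, only *Cd3e* had a mean of 1 CPM or more (3.16 CPM), so their sum is mostly that gene. The T cell markers summed to 0.733 CPM in scrambled RNP replicate 2 and to 5.9 CPM in replicate 4. These samples were also the lowest and highest in *Ccnd1*. They held the fewest and the most genes with a count as well, 18365 and 20238. B cell markers, of which 1 of 5 had a mean of 1 CPM or more, summed to 0.766 and 2.71 CPM in them. The part of any of these in the level of *Ccnd1* was not tested.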

How the data were processed

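RNA of 8 BMMC samples was analyzed, 4 per RNP. Per the labels and methods, poly(A) libraries were read on a NovaSeq, checked with FastQC 0.11.9, aligned with HISAT2 2.2.1 to GRCm39 and counted per gene with featureCounts 2.0.1. The authors deposited raw counts, whole numbers without normalization or batch correction, although the methods name removeBatchEffect. The strand setting and the handling of reads with several matches are not given in the sources used here, so reads shared by antisense genes or near-identical copies may have been divided or lost.

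The test on these counts was that of edgeR 4.0.16 (R 4.3.3; quasi-likelihood F test, TMM, filterByExpr, replicate number as a block), which kept 14934 genes, all 10 G1 genes among them. Adjustment was by Benjamini-Hochberg over all genes tested. A standard error is the size of the log2 fold change over the square root of F, and intervals are at 95%. Pair differences used log2 CPM with a prior count of 2. CPM per kilobase used GENCODE vM39 exons on GRCm39, which held 22601 of 24059 symbols. Limits of precision come from counting and from n = 4. The p-values of the blocked fit and of the sign-flip test rest on the spread of the differences within pairs. Those of the fit without the block rest on the spread between samples of a group. The 10 genes and all lists were chosen with earlier results of these data known.

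Named are the 10 genes, *Zc3h12a*, *Mki67*, up to 4 genes per list with the lowest unadjusted p, and, for G1 genes spanning more than 1 log2 unit, the 3 nearest profiles. Chosen after their values were seen were *LTO1* and *Tspan31* (overlapping exons), *Csf2rb* and *Csf2rb2*, the targets with an E2F core, *Cd3e* and *Gata1*.

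The pairing comes from the study's design of 4 mice, but no label says that a number marks a mouse. Deviations of same-numbered samples from the group means correlated at 0.595, 0.0752, 0.624 and 0.0414 over all genes tested, and samples of different numbers at up to 0.398. Over 9668 genes with a mean log2 CPM above 2 the same-numbered values were 0.717 to 0.756 and the others at most 0.137. Within each group, all samples differed by more than sampling noise. The 12 alternatives were DESeq2 1.42.0, limma-trend (limma 3.58.1), other normalizations and filters, no block, and leaving out each replicate. Scripts were tested on simulated data.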

Additional observations from a re-analysis of the deposited data

Results flagged for a closer look

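Of 34 groups of 4 samples examined for a sample far from the rest, 5 had a gap to the next sample, as a share of the group's range, above Dixon's 95% critical value, where chance gives about 1.7. *Cdk2* in scrambled RNP replicate 4 lay below the others, with a gap of 0.96 of the range, and *Cdk2* in *Zc3h12a* RNP replicate 1 lay above the others, with a gap of 0.878, although these samples spanned only 65.6 to 71.8 CPM. *Zc3h12a* in scrambled RNP replicate 1 was lowest, with a gap of 0.846 of the range, at 24.9 CPM against 37.1 to 39.3 CPM in the others, and its *Zc3h12a* RNP partner was the lowest of its group too, at 26.8 CPM. *Zc3h12a* RNP replicate 3 was highest in the log2 ratio of *E2f1* to *Rb1* (gap 0.852 of the range) and in that of the summed D-type cyclins to *Cdkn1b* (gap 0.86 of the range). That culture had the least *Cdkn1b* of all samples.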

How the results depend on the processing

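Under the 12 alternatives the G1 genes had 119 fold changes (*Ccnd1* could not be tested at a minimum of 10 counts in every sample), of which 109 kept their direction, 10 in 6 genes turned, and 0 passed the threshold; the lowest adjusted p was 0.0843, for *Ccne1* without replicate 2. Against 0 genes called higher and 0 lower in edgeR with the replicate block, DESeq2 called 8 and 50, no filter 9 and 31, limma-trend and RLE normalization 1 lower each, and a minimum of 10 counts 3 lower. Leaving out a replicate gave 0 to 80 higher and 0 to 57 lower, both highest without replicate 2. Without the replicate block 0 genes were called and 104 had an unadjusted p at or under 0.05, against 922 with it, and *Ccnd1* was at -0.17 and *E2f1* at -0.0096. The count of G1 genes at an unadjusted p at or under 0.05, 1 here, was 0 without the block and 0 with library size alone, and 0 to 2 when a replicate was left out. Without a filter it was 1, but the gene was *Ccne1* (unadjusted p 0.0366) and not *Cdkn1b* (0.0619). With library size alone *Ccnd2* and *Zc3h12a* were both at 0.0046. When a replicate was left out, the log2 fold changes ran from -0.17 to 1.07 for *Ccnd1*, -0.096 to -0.015 for *Ccnd2*, -0.24 to 0.0091 for *Ccnd3*, -0.037 to 0.17 for *Cdk2*, -0.043 to 0.30 for *Cdk4*, -0.10 to -0.011 for *Rb1*, -0.036 to 0.17 for *E2f1* and -0.075 to 0.0062 for *Zc3h12a*. The list medians ran from 0.0071 to 0.25 for pocket proteins and MuvB, from -0.09 to 0.13 for the other CDK inhibitors, from -0.041 to 0.10 for CDK activation and cyclin turnover and from -0.13 to 0.024 for the IL-3 signal, and the log2 ratios from -0.14 to 0.024 for *Ccnd3* to *Ccnd2*, from 0.014 to 1.28 for *Ccnd1* to *Ccnd2*, from -0.34 to -0.019 for *Cdk4* to *Cdk6* and from -0.022 to 0.19 for *E2f1* to *Rb1*. The cause was not tested. *Ccnd1* had only 3 to 28 reads per sample, and all the comparisons rest on 4 pairs or fewer.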
